A study of Mus musculus with 4 samples.

Results

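The genes of the proteasome were examined on 4 mouse arrays of transplanted haematopoietic stem cells and progenitors. Members were the probes, control spots left out, whose deposited gene name began with Psma, Psmb, Psmc, Psmd, Psme, Psmf or Psmg and a digit. This gave 62 probes, of 55681 on the array, and 49 gene names. Over the whole array 28308 genes had a probe well above background on at least 1 array. The names comprised 31 constitutive core subunits of the 20S particle and the 19S cap, 3 immunoproteasome subunits, 12 assembly chaperones, activators and regulators, and 2 tissue-restricted subunits. The remaining name, Psmc3ip, belongs to a meiotic recombination gene and was set apart.

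The proteasome degrades proteins that carry ubiquitin chains. Its 20S barrel is built of outer alpha rings, which gate the entrance, and inner beta rings, which hold the proteolytic sites, and the 19S cap recognises, unfolds and feeds in the substrate. Immunoproteasome subunits, known to be induced by interferon and abundant in blood cells, can replace the constitutive catalytic subunits and alter which peptides are made, and proteasome activity is known to be tightly regulated in haematopoietic stem cells.

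The 4 groups were cKO LT-HSC, WT LT-HSC, cKO MPP and WT MPP. LT-HSC were long-term haematopoietic stem cells, sorted as CD34-negative, Flt3-negative LSK cells (marrow cells without lineage markers that carry Sca-1 and Kit), and MPP were multipotent progenitors, sorted as CD34-positive, Flt3-positive LSK cells. The donors were C57BL/6J mice, wild type (WT) or with a conditional knockout of p38 (cKO), a stress-activated kinase, and the labels give the male sex and an age of 10 weeks. All 4 groups were labelled with the dye CFSE, injected into congenic recipients given 9.5 Gy of irradiation, and sorted again as CFSE-positive marrow cells after 16 h. The driver of the deletion, the deleted exons, the alleles of the WT donors and the number of mice behind each array were not given in the sources used here. Each group had 1 array, so no difference between single arrays has a replicate check or a p-value, and an error given with ± is the scanner software's own estimate of spot error.

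A level below is the processed signal of a gene's brightest probe divided by its array's 75th percentile of signal, and a difference is on the log2 scale of these levels. Differences are compared within a probe only. The 75th percentile was 204 in cKO LT-HSC, 218 in WT LT-HSC, 178 in cKO MPP and 181 in WT MPP, and 62.5% to 70.5% of spots were well above background, with no saturated spot. Mapk14, which encodes p38 alpha, had a level of 4.48 in cKO LT-HSC, 6.64 in WT LT-HSC, 5.75 in cKO MPP and 5.24 in WT MPP at its brighter probe. At its other probe, cKO minus WT was 0.15 in LT-HSC and -0.03 in MPP. These probes did not separate cKO from WT, and whether they lie in the deleted part is not given in the sources used here. Of the sort genes, Cd34 had levels of 17.7 in cKO LT-HSC, 5.36 in WT LT-HSC, 35.6 in cKO MPP and 42.6 in WT MPP, and Flt3 was likewise lower in LT-HSC than in MPP (-1.14 in cKO and -1.81 in WT). Summed levels of 15 B cell markers were 101 in cKO LT-HSC, 164 in WT LT-HSC, 20.8 in cKO MPP and 17.8 in WT MPP, with all 15 above background in LT-HSC and 10 and 11 of them in cKO MPP and WT MPP. Those of 8 plasmacytoid and dendritic markers were 196 in cKO LT-HSC, 231 in WT LT-HSC, 45.6 in cKO MPP and 47.8 in WT MPP. Those of 12 T and NK cell markers were 73.2 in cKO LT-HSC, 92.7 in WT LT-HSC, 34.6 in cKO MPP and 35.3 in WT MPP. Cd22 alone held 17.8 of the B cell sum in cKO MPP and 13.9 in WT MPP. Nkg7 held 28.4 and 29.45 of the T and NK cell sums there, and Siglech 24.2 and 25.85 of the plasmacytoid and dendritic sums. The median LT-HSC minus MPP difference of B cell markers was 3.61 in cKO (10 genes) and 4.82 in WT (11 genes). For plasmacytoid and dendritic markers it was 2.28 (7) and 3.09 (8), and for T and NK cell markers 2.26 (8) and 1.74 (6). Erythroid markers (8 measured of 10) summed to 55.4 in cKO LT-HSC, 85.0 in WT LT-HSC and 38.4 to 45.0 in MPP, and stromal and endothelial markers (11 measured of 12) to 11.8 in cKO LT-HSC, 43.3 in WT LT-HSC and 12.4 to 12.8 in MPP. In WT LT-HSC, Hba-a1 alone held 51.1 of the erythroid sum and Cxcl12 23.5 of the stromal and endothelial sum. Some genes ran against these sums. Car2 and Ermap of the erythroid list were lowest in WT LT-HSC, as were Pecam1, Col3a1 and Kitl of the stromal and endothelial list. Macrophage markers (15 genes) summed to 32.7 in cKO LT-HSC, 40.1 in WT LT-HSC, 137.5 in cKO MPP and 62.3 in WT MPP. The sums of 12 neutrophil genes lay between 234 and 294, but the genes moved in opposite directions. In each genotype 6 of 12 were higher by 2-fold in LT-HSC (6.8% of all genes in cKO and 9.09% in WT). Lower by 2-fold were 3 of 12 in cKO and 4 of 12 in WT (6.22% and 18.2% of all genes). S100a8 differed by 1.05 in cKO and 1.72 in WT, and Mpo by -1.51 and -2.17. The sums of all these lists but the macrophage and neutrophil ones were highest on the WT LT-HSC array. The part of any list in the results below was not tested.

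Core proteasome subunits were lower in LT-HSC than in MPP of both genotypes. In cKO cells all 31 were lower (29 under quantile normalization), with a median difference of -0.55, a level ratio of 0.683, against a median of -0.08 and 56.1% below 0 over 23394 genes. In WT cells 30 of 31 were lower (28 under quantile normalization), with a median of -1.13, a level ratio of 0.457, against -0.20 and 59.9% below 0 over 22410 genes. The scanner error of a single difference was about ± 0.20. These are bulk RNA values, in which fewer cells of a type and less RNA per cell cannot be told apart. No core subunit was lower by 2-fold in cKO cells, where 6.22% of all genes were, while 14 of 31 were lower by 1.5-fold, against 19% of all genes. That excess over all genes was not kept under quantile normalization (4 of 31, against 17.6% of all genes) or normexp and quantile normalization (2 of 31, against 9.25%). In WT cells 19 of 31 were lower by 2-fold and 26 by 1.5-fold, against 18.2% and 32.8% of all genes.

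**Figure D1:**
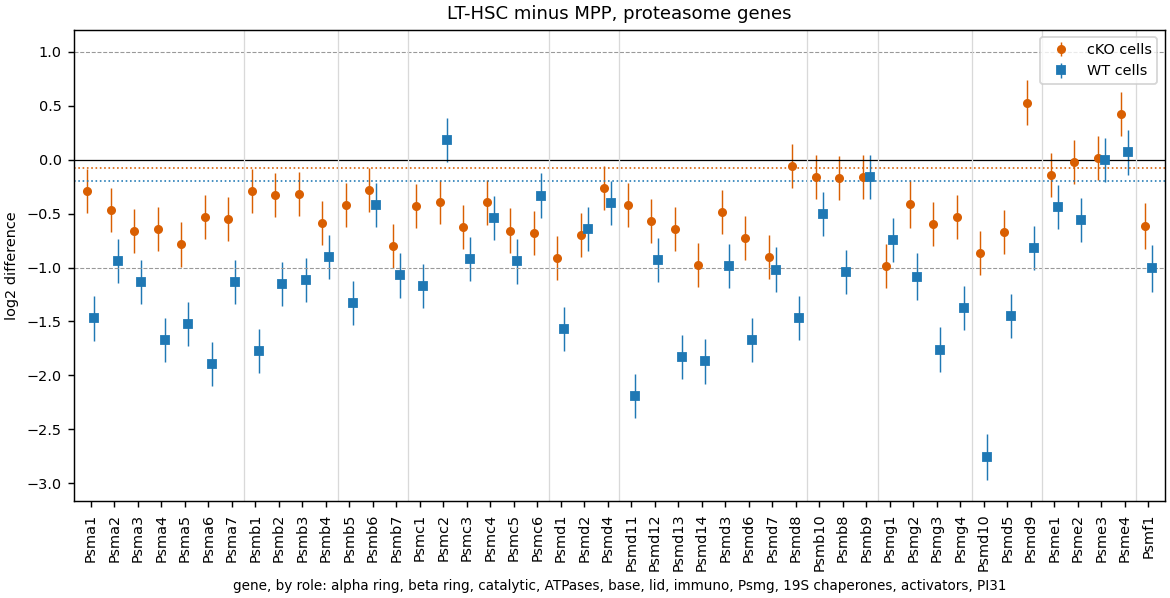
Difference in log2 level, LT-HSC minus MPP, for each proteasome gene measured on all 4 arrays, in cKO cells (circles) and WT cells (squares); bars are ± the scanner error, dotted lines the medians of all genes and dashed lines a 2-fold difference. Core subunits lie between -0.98 and -0.06 in cKO cells and spread from -2.19 to 0.18 in WT cells.

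The subunits differed from one another more in WT cells than in cKO cells: the SD of the difference over the 31 core genes was 0.22 in cKO cells and 0.53 in WT cells. All genes also spread more in WT cells: their quartiles were -0.47 and 0.29 in cKO cells and -0.78 and 0.32 in WT cells. The WT LT-HSC array had the lowest level for 24 core genes and the cKO LT-HSC array for the other 7, namely Psmb6, Psmb7, Psmc2, Psmc4, Psmc6, Psmd2 and Psmd4. The WT MPP array was highest for 28, the cKO MPP array for Psmc3 and Psmd7, and the WT LT-HSC array for Psmc2. For 22 core genes the levels ran, from low to high, WT LT-HSC, cKO LT-HSC, cKO MPP and WT MPP. Over all 21551 genes measured on every array, WT LT-HSC was lowest for 41.7% and cKO LT-HSC for 21.7%. The 7 core genes lowest in cKO LT-HSC are thus near the share of all genes. WT MPP was highest for 36.2% of all genes, WT LT-HSC for 23.0% and cKO MPP for 17.2%. The share of all genes with the full order of the 22 was not calculated. The WT LT-HSC array enters both the WT population comparison and the genotype comparison in LT-HSC, and the other arrays are likewise each used in both a population and a genotype comparison. The population comparison in cKO cells does not use the WT LT-HSC array.

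**Figure D2:**
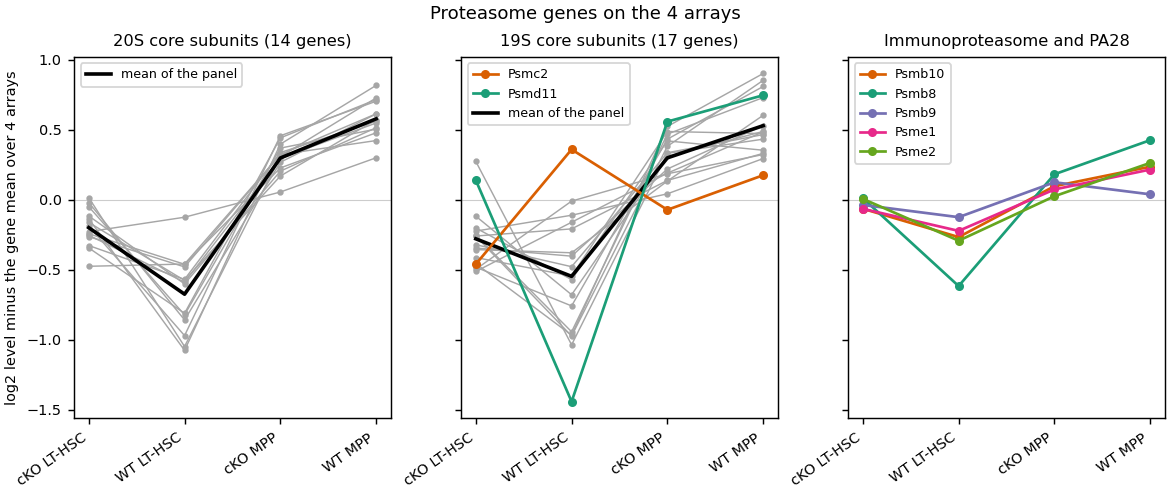
Log2 level of each gene minus its own mean over the 4 arrays, for the 14 core genes of the 20S particle, the 17 of the 19S cap, and the immunoproteasome and PA28 genes; thick lines are panel means. The mean of the 31 core genes was -0.24 in cKO LT-HSC, -0.61 in WT LT-HSC, 0.30 in cKO MPP and 0.55 in WT MPP, and Psmc2 and Psmd11 mark the extremes of the 19S panel.

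The 7 alpha ring genes were lower in LT-HSC by a median of -0.55 in cKO cells and -1.47 in WT cells. Of the 7, 6 were lower by 2-fold in WT cells, against 18.2% of all genes. Psma6 had a level of 25.5 in cKO LT-HSC, 13.3 in WT LT-HSC, 36.9 in cKO MPP and 49.3 in WT MPP. It showed the largest difference of the ring between WT populations, -1.89, and between genotypes in LT-HSC, 0.94. Psma1 had a level of 24.2 in cKO LT-HSC, 13.6 in WT LT-HSC, 29.6 in cKO MPP and 37.6 in WT MPP. In cKO cells its LT-HSC to MPP difference of -0.29 was the smallest of the ring, and that one became 0.00 with normexp and quantile normalization. Psma5 had a level of 8.74 in cKO LT-HSC, 6.32 in WT LT-HSC, 15.1 in cKO MPP and 18.2 in WT MPP, and its difference of -0.79 was the largest of the ring in cKO cells. Psma2 had a level of 19.4 in cKO LT-HSC, 16.6 in WT LT-HSC, 26.8 in cKO MPP and 31.9 in WT MPP, and Psma3 had 29.7 in cKO LT-HSC, 25.1 in WT LT-HSC, 47.1 in cKO MPP and 55 in WT MPP. Both were lower in LT-HSC in both genotypes, and their 2 LT-HSC arrays were close, cKO minus WT 0.22 and 0.24, about the size of the scanner error. Psma4 and Psma7, the other alpha genes, differed by -0.65 and -0.55 in cKO cells and by -1.67 and -1.14 in WT cells.

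The 4 structural beta genes, which lack a proteolytic site, were lower in LT-HSC by a median of -0.33 in cKO cells and -1.13 in WT cells. Psmb1 had a level of 3.91 in cKO LT-HSC, 1.87 in WT LT-HSC, 4.79 in cKO MPP and 6.40 in WT MPP. The WT LT-HSC array stood below the other 3, and the WT MPP array was the highest. Psmb4 had a level of 58 in cKO LT-HSC, 49.9 in WT LT-HSC, 87 in cKO MPP and 93.3 in WT MPP, with both LT-HSC arrays below both MPP arrays. Psmb2 and Psmb3 differed by -0.33 and -0.32 in cKO cells and by -1.15 and -1.12 in WT cells.

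The constitutive catalytic subunits and the immunoproteasome subunits that replace them form pairs at the same site. Psmb5, the chymotrypsin-like subunit, is paired with Psmb8, Psmb6, the caspase-like subunit, with Psmb9, and Psmb7, the trypsin-like subunit, with Psmb10. The promoters of Psmb5, Psmb6, Psmb8 and Psmb9 are shown because these genes, although subunits of the same barrel, differed in how far LT-HSC and MPP were apart. Each runs 5′ to 3′ from 250 bases before to 50 bases after the start site in RefSeq (GRCm38.p6). Capitals mark, on either strand, the antioxidant response element core TGACNNNGC in Psmb5 and Psmb6, the GAS element TTCNNNGAA in Psmb8 and the CCAAT box in Psmb9.
Psmb5 promoter, chr14:54617946-54618245 (-): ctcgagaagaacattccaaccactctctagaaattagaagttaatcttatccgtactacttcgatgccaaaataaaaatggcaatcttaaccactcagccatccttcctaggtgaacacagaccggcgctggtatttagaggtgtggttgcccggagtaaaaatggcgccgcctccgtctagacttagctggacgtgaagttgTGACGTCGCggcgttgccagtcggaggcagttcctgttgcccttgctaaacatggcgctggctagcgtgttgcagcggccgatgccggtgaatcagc
Psmb6 promoter, chr11:70525107-70525406 (+): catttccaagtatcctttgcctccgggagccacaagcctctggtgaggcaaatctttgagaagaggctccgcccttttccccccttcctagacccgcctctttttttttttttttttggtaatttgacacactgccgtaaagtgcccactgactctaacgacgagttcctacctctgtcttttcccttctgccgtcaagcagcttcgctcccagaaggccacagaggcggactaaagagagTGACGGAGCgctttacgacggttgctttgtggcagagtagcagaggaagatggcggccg
Psmb8 promoter, chr17:34197945-34198244 (+): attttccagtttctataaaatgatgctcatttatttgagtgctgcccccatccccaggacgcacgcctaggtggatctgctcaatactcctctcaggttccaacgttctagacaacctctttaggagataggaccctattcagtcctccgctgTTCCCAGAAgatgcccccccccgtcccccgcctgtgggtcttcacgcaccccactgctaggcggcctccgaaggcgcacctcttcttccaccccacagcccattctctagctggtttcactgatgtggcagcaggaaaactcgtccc
Psmb9 promoter, chr17:34187281-34187580 (-): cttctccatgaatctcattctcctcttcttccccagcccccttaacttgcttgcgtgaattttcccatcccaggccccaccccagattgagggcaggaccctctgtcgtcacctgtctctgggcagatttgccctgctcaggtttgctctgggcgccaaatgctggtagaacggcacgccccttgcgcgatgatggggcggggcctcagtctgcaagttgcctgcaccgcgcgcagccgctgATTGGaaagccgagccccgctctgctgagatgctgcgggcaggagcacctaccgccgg
The antioxidant response element core, a site bound by Nrf factors, began at position -47 from the start site of Psmb5 and -9 from that of Psmb6. A promoter entry was given for 41 members, of which 25 were core genes. TGACNNNGC was found in 4 of these 25 (16%: Psmb5, Psmb6, Psmc6 and Psmd12) and in 14% of 27025 genes with a promoter. The CCAAT box was found in 10 of 25 (40%), against 41.1% of all genes. TTCNNNGAA, the GAS element, was found in 1 of 25 core genes (4%) and 1 of the 3 immunoproteasome genes, against 9.55% of all genes. The core of the interferon-stimulated response element (GAAA, any 2 bases, GAAA) was found in 2 of 25 core genes (8%) and none of the 3 immunoproteasome genes, against 3.99% of all genes. Of the 11 accessory genes with a promoter (chaperones, activators and regulators), 3 held it (27.3%: Psmd9, Psmg4 and Psme1), while 2 held TGACNNNGC, 2 the CCAAT box and 1 the GAS element. The 4 motifs were searched separately on both strands, and a match is a match of letters only.

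Psmb5 had a level of 14 in cKO LT-HSC, 8.21 in WT LT-HSC, 18.7 in cKO MPP and 20.6 in WT MPP. Its LT-HSC to MPP difference was -0.42 in cKO cells and -1.33 in WT cells, and its other probe gave -0.77 and -1.74. Psmb8 had a level of 25 in cKO LT-HSC, 16.2 in WT LT-HSC, 28.2 in cKO MPP and 33.4 in WT MPP. Like Psmb5, it was lowest in WT LT-HSC, with differences of -0.17 in cKO cells and -1.04 in WT cells. The log2 ratio of Psmb8 to Psmb5 was higher in LT-HSC by 0.25 ± 0.29 in cKO cells and 0.28 ± 0.29 in WT cells at the brighter Psmb5 probe, no more than its scanner error. At the other Psmb5 probe it was higher by 0.60 ± 0.29 in cKO cells and 0.69 ± 0.29 in WT cells, so its size depends on the probe read.

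Psmb6 had a level of 15.8 in cKO LT-HSC, 17 in WT LT-HSC, 19.2 in cKO MPP and 22.8 in WT MPP. Its difference between populations was smaller than that of Psmb5 in both genotypes, -0.28 in cKO cells and -0.42 in WT cells, and in WT cells its sign turned in 2 of 9 processing settings. Psmb9 had a level of 27.1 in cKO LT-HSC, 25.5 in WT LT-HSC, 30.3 in cKO MPP and 28.6 in WT MPP. The 4 arrays lay close together, with differences of -0.16 in cKO cells and -0.16 in WT cells, both smaller than the scanner error and of unsettled sign across settings. The ratio of Psmb9 to Psmb6 was higher in LT-HSC by 0.12 ± 0.29 in cKO cells and 0.26 ± 0.29 in WT cells. A further Psmb9 probe was not well above background on any array.

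Psmb7 had a level of 16.5 in cKO LT-HSC, 16.7 in WT LT-HSC, 28.7 in cKO MPP and 35.1 in WT MPP. Both LT-HSC arrays lay well below both MPP arrays, by -0.80 in cKO cells and -1.07 in WT cells. Psmb10 had a level of 9.85 in cKO LT-HSC, 8.56 in WT LT-HSC, 11 in cKO MPP and 12.1 in WT MPP, with smaller differences of -0.16 in cKO cells and -0.50 in WT cells. The ratio of Psmb10 to Psmb7 was higher in LT-HSC by 0.64 ± 0.29 in cKO cells and by 0.57 ± 0.29 in WT cells, more than its scanner error in both genotypes, with 1 probe for each gene. The probes of Psmb7, Psmb8 and Psmb9 are printed as examples of the sequences read here, with mm9 coordinates and all bases in lower case. The longest run shared by the probes of a pair was 5, 5 and 6 bases (Psmb8 and Psmb5, Psmb9 and Psmb6, Psmb10 and Psmb7).
Psmb7 probe, chr2:38468966-38489385 (-): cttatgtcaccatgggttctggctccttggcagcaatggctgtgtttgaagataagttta
Psmb8 probe, chr17:34337771-34337830 (+): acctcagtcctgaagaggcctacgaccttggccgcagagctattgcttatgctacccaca
Psmb9 probe, chr17:34319174-34319233 (-): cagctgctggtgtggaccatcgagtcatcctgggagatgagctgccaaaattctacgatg
As a group the 3 immunoproteasome genes were lower in LT-HSC by a median of -0.16 in cKO cells and -0.50 in WT cells, against -0.42 and -1.07 for the 3 constitutive catalytic genes. The immunoproteasome median in cKO cells turned to 0.12 under quantile normalization and 0.10 with normexp and quantile normalization. In WT cells 1 of the 3, Psmb8, was lower by 2-fold, against 18.2% of all genes, and in cKO cells none, against 6.22%.

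Genes of interferon signalling and antigen presentation, the programme with which immunoproteasome genes are known to be induced, were listed for comparison (21 genes). Their median LT-HSC to MPP difference was 0.57 in cKO cells and 0.63 in WT cells. In cKO cells 5 of 21 were higher by 2-fold and 0 lower, against 6.8% and 6.22% of all genes. In WT cells 9 of 20 were higher and 2 lower, against 9.09% and 18.2%. The 2 lower were Ifit2 (-2.27) and Tap2 (-1.07), both at their lowest level on the WT LT-HSC array. Irf8, a transcription factor of dendritic and lymphoid lineages, had a level of 9.41 in cKO LT-HSC, 16.1 in WT LT-HSC, 1.93 in cKO MPP and 1.82 in WT MPP. Nlrc5, an activator of class I genes, had a level of 4.37 in cKO LT-HSC, 6.73 in WT LT-HSC, 2.38 in cKO MPP and 2.46 in WT MPP. Irf8 and Nlrc5 were higher in LT-HSC than in MPP, most on the WT LT-HSC array, on which the summed lymphoid markers were also highest. Tap1, the peptide transporter gene next to Psmb9, had a level of 0.376 in cKO LT-HSC, 0.636 in WT LT-HSC, 0.530 in cKO MPP and 0.590 in WT MPP. Its difference was -0.50 in cKO cells and 0.11 in WT cells.

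The 6 ATPases of the 19S base, which unfold the substrate, were lower in LT-HSC by a median of -0.52 in cKO cells and -0.73 in WT cells. Psmc1 had a level of 19.8 in cKO LT-HSC, 13.4 in WT LT-HSC, 26.6 in cKO MPP and 30.1 in WT MPP, lower by 2-fold in WT LT-HSC than in WT MPP. Psmc2 had a level of 11.1 in cKO LT-HSC, 19.6 in WT LT-HSC, 14.5 in cKO MPP and 17.2 in WT MPP. It ran against the other core genes, being highest in WT LT-HSC, with a difference of 0.18 in WT cells, within the scanner error, and -0.39 in cKO cells. Its other probe gave 0.19 and -0.30, but the pair share 50 bases (chr5:21309536-21309595 and chr5:21309546-21309602 in mm9), so they are not independent readings. Psmc3 had a level of 26.2 in cKO LT-HSC, 20.3 in WT LT-HSC, 40.4 in cKO MPP and 38.6 in WT MPP, with both LT-HSC arrays below both MPP arrays. Its WT population difference was -0.92 at this probe and -1.63 at its other probe, and cKO minus WT in LT-HSC was 0.37 and 0.98. Psmc4 had a level of 7.84 in cKO LT-HSC, 8.12 in WT LT-HSC, 10.3 in cKO MPP and 11.8 in WT MPP, and Psmc6 had 2.02 in cKO LT-HSC, 2.83 in WT LT-HSC, 3.24 in cKO MPP and 3.56 in WT MPP. Both were lowest in cKO LT-HSC, Psmc4 by less than the scanner error. Psmc5 differed by -0.66 in cKO cells and -0.94 in WT cells.

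The non-ATPase subunits of the base bind ubiquitin and its shuttle proteins. Psmd1, a scaffold, had a level of 2.78 in cKO LT-HSC, 2.30 in WT LT-HSC, 5.25 in cKO MPP and 6.81 in WT MPP. It was lower in LT-HSC in both genotypes, by -0.92 in cKO cells and -1.57 in WT cells. Psmd2, the other scaffold, had a level of 9.12 in cKO LT-HSC, 11.6 in WT LT-HSC, 14.8 in cKO MPP and 18.2 in WT MPP, and here the difference was about equal in the genotypes, -0.70 in cKO cells and -0.65 in WT cells. Psmd4, a ubiquitin receptor, had a level of 18 in cKO LT-HSC, 19.5 in WT LT-HSC, 21.6 in cKO MPP and 25.8 in WT MPP, with both LT-HSC arrays below both MPP arrays. The Psmd4 difference of -0.40 in WT cells changed sign in 2 of 9 settings.

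The 8 lid genes were lower in LT-HSC by a median of -0.60 in cKO cells and -1.57 in WT cells. Of the 8, 6 were lower by 2-fold in WT cells, against 18.2% of all genes. Psmd11, a subunit that clamps lid, base and core together, had a level of 2.81 in cKO LT-HSC, 0.940 in WT LT-HSC, 3.76 in cKO MPP and 4.29 in WT MPP. WT LT-HSC stood far below the other 3 arrays, and the WT difference of -2.19 was the largest of the core. The Psmd11 probe is shown because that difference rests on it. Its coordinates cover 515 bases of the genome (mm9), more than its own 60, so it joins exons and would not match unspliced RNA over its whole length.
Psmd11 probe, chr11:80283406-80283920 (+): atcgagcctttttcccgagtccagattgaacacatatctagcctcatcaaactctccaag
Psmd8 had a level of 3.45 in cKO LT-HSC, 1.39 in WT LT-HSC, 3.59 in cKO MPP and 3.86 in WT MPP, again with WT LT-HSC apart and the other 3 arrays close, so that its difference was -0.06 in cKO cells and -1.47 in WT cells. Psmd14, the deubiquitinating subunit, had a level of 1.28 in cKO LT-HSC, 0.901 in WT LT-HSC, 2.53 in cKO MPP and 3.29 in WT MPP. It had the largest core difference in cKO cells, -0.98, and -1.87 in WT cells. Psmd7, which forms a pair with Psmd14, had a level of 38.4 in cKO LT-HSC, 35 in WT LT-HSC, 71.7 in cKO MPP and 71 in WT MPP. Its genotypes were nearly alike in both populations, and its LT-HSC to MPP difference was -0.90 in cKO cells and -1.02 in WT cells. Psmd13 had a level of 4.48 in cKO LT-HSC, 2.73 in WT LT-HSC, 6.99 in cKO MPP and 9.69 in WT MPP, and Psmd3 had 15.6 in cKO LT-HSC, 15.3 in WT LT-HSC, 21.9 in cKO MPP and 30.3 in WT MPP. Both had their highest level in WT MPP by a clear step. Psmd12 had a level of 5.91 in cKO LT-HSC, 5.68 in WT LT-HSC, 8.74 in cKO MPP and 10.8 in WT MPP, with nearly equal LT-HSC arrays at this probe and a cKO minus WT difference of 0.06, against 0.71 at its other probe. Its WT population difference was -0.93 at this probe and -1.68 at the other. Psmd6 differed by -0.72 in cKO cells and -1.67 in WT cells.

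The 19S assembly chaperones were lower in LT-HSC by a median of -0.67 in cKO cells and -1.45 in WT cells, but their probes disagreed. Psmd5 had a level of 2.33 in cKO LT-HSC, 1.47 in WT LT-HSC, 3.71 in cKO MPP and 4.02 in WT MPP, in the same order as most core genes. Psmd10 (gankyrin) had a level of 0.801 in cKO LT-HSC, 0.356 in WT LT-HSC, 1.46 in cKO MPP and 2.40 in WT MPP. The WT difference of -2.75 was the largest of all members, while the other Psmd10 probe gave -1.08 in WT cells and 0.65 in cKO cells, where the brighter probe gave -0.87. Psmd9 had a level of 1.80 in cKO LT-HSC, 1.04 in WT LT-HSC, 1.25 in cKO MPP and 1.83 in WT MPP. In cKO cells the brighter Psmd9 probe was 0.53 and the other -1.35, so no direction is given for it there. The brighter Psmd10 and Psmd9 probes are shown because the calls turn on which probe is read. The Psmd10 probe covers 2897 bases of the genome, and the other Psmd10 probe lies at chrX:137482968-137483027.
Psmd10 probe, chrX:137483840-137486736 (-): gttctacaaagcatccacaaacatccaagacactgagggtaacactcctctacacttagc
Psmd9 probe, chr5:123691881-123691940 (+): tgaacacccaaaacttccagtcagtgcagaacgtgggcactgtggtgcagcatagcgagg
The 4 Psmg genes encode chaperones that assemble the 20S rings, and all were lower in LT-HSC, by a median of -0.57 in cKO cells and -1.23 in WT cells. Psmg3 had a level of 0.887 in cKO LT-HSC, 0.550 in WT LT-HSC, 1.34 in cKO MPP and 1.86 in WT MPP, lowest in WT LT-HSC. Psmg1 had a level of 2.55 in cKO LT-HSC, 3.39 in WT LT-HSC, 5.04 in cKO MPP and 5.68 in WT MPP, lowest in cKO LT-HSC, and Psmg2 had 0.350 in cKO LT-HSC, 0.308 in WT LT-HSC, 0.466 in cKO MPP and 0.654 in WT MPP. Psmg4 differed by -0.53 in cKO cells and -1.37 in WT cells.

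The activators, which open the barrel without the 19S cap, differed little between populations, with medians of -0.0013 in cKO cells and -0.22 in WT cells, and none was lower by 1.5-fold at its brightest probe, against 19% of all genes in cKO cells and 32.8% in WT cells. Psme1, an interferon-inducible subunit of PA28, had a level of 43.7 in cKO LT-HSC, 39.2 in WT LT-HSC, 48.1 in cKO MPP and 53.1 in WT MPP. Its population difference was -0.14 in cKO cells and -0.44 in WT cells, and the sign turned in 2 of 9 settings in each genotype. It was printed in 10 spots on each array, whose median processed signal, before scaling, was 8907 in cKO LT-HSC, 8556 in WT LT-HSC, 8490 in cKO MPP and 9557 in WT MPP, and these spots had a log2 SD of 0.057 to 0.068. Psme2, its partner, had a level of 22.2 in cKO LT-HSC, 18 in WT LT-HSC, 22.4 in cKO MPP and 26.5 in WT MPP. Its 3 probes gave -0.56, -1.07 and 0.61 for the WT population difference, and the last is listed at coordinates 219297 bases apart, so its target is uncertain. Psme3, a nuclear activator, had a level of 218 in cKO LT-HSC, 208 in WT LT-HSC, 216 in cKO MPP and 209 in WT MPP, and its population difference was within the scanner error in both genotypes (0.02 in cKO cells and -0.0042 in WT cells). Over 9 settings it ran from -0.08 to 0.31 in cKO cells and from -0.0042 to 0.46 in WT cells. Psme4 had a level of 1.48 in cKO LT-HSC, 1.59 in WT LT-HSC, 1.11 in cKO MPP and 1.52 in WT MPP. It was higher in LT-HSC in cKO cells at this probe (0.42) and lower at its other probe (-0.96). Psmf1, a regulator of proteasome activity, had a level of 0.424 in cKO LT-HSC, 0.323 in WT LT-HSC, 0.649 in cKO MPP and 0.649 in WT MPP, lower in LT-HSC in both genotypes.

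The tissue-restricted subunits were near background. Psma8, the testis form of an alpha subunit, was not well above background in LT-HSC of either genotype and had a processed signal of 38.8 in cKO MPP and 24.5 in WT MPP. It was 3.52-fold lower in LT-HSC than in MPP of cKO mice and 2.36-fold lower in WT mice by the following rule. Each LT-HSC array was set at the higher of its dimmest well-above-background signal and the probe's own signal. The rule leaves out scanner error, which was 0.32 for the Psma8 difference between the MPP arrays, so these figures are no strict bounds. Psmb11, the thymus form of a beta subunit, had processed signals of 16.5 in cKO LT-HSC, 16.6 in WT LT-HSC, 10.6 in cKO MPP (not well above background) and 20.3 in WT MPP. By the same rule, with cKO MPP as the array not well above background, it was 1.56-fold lower in cKO MPP than in WT MPP. The scanner error of the Psmb11 difference between the LT-HSC arrays was 0.41. Psmc3ip, the meiotic gene caught by its name, was lowest in cKO LT-HSC, with a cKO minus WT difference of -1.41 in LT-HSC and -0.44 in MPP.

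Between genotypes the core genes were on balance higher on the cKO array in LT-HSC and lower on the cKO array in MPP. In LT-HSC the median difference, cKO minus WT, was 0.34, with 24 of 31 above 0, against a median of 0.12 and 59.9% above 0 over 24134 genes. With arrays scaled by their medians 20 of 31 were above 0, with a core median of 0.13 and a median over all genes of -0.09. Psmd11, Psmd8 and Psmb1 were higher by 2-fold in cKO LT-HSC (1.58, 1.31 and 1.06). That is 3 of 31, against 9.22% of all genes, and none was lower by 2-fold, against 7.66%. All 3 were read at probes that span an intron. With every core probe counted, 3 of 11 that span an intron and 0 of 26 within 1 exon were higher by 2-fold. The medians of these probes were 0.41 and 0.35. At 1.5-fold, 9 of 31 were higher, against 19.3% of all genes, and 1, Psmc2 (-0.82), was lower, against 14.5%. In MPP the median was -0.25, with 29 of 31 below 0 (26 under quantile normalization), against -0.06 and 56.6% below 0 over 22411 genes. The MPP differences ran from -0.47 (Psmd13) to 0.07 (Psmc3). None reached 1.5-fold in either direction, against 7.55% of all genes lower and 6.62% higher.

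**Figure D3:**
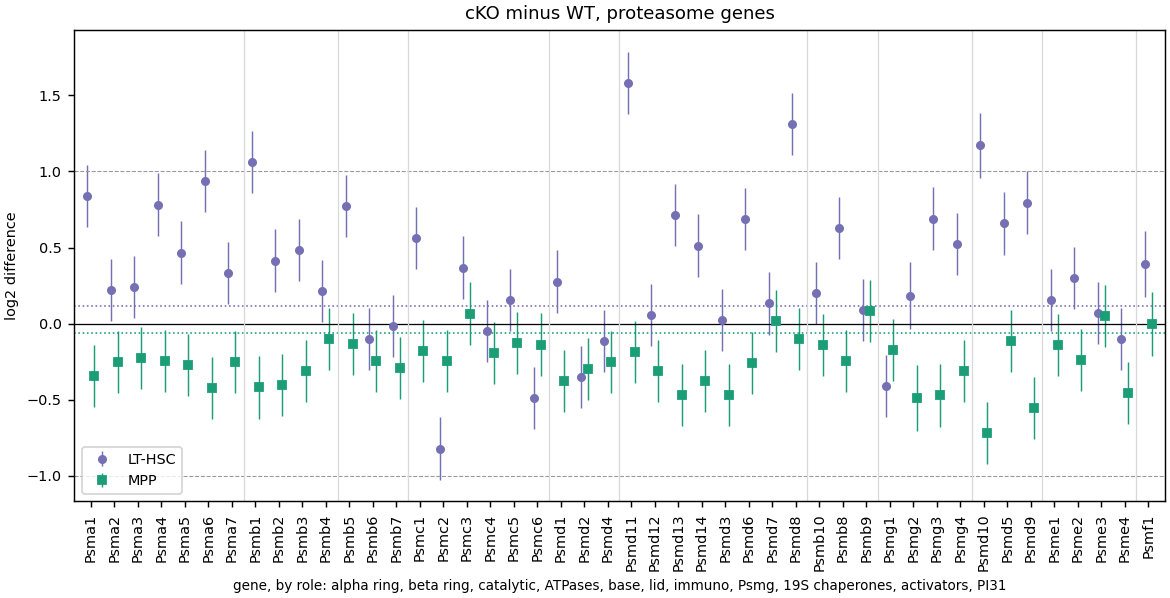
Difference in log2 level, cKO minus WT, for each proteasome gene measured on all 4 arrays, in LT-HSC (circles) and MPP (squares); bars are ± the scanner error, dotted lines the medians of all genes and dashed lines a 2-fold difference. In LT-HSC the core genes reach from -0.82 (Psmc2) to 1.58 (Psmd11), and in MPP all but Psmc3 and Psmd7 lie below 0.

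The genotype difference in LT-HSC varied by role. It was 0.47 in the alpha ring (7 of 7 above 0), 0.45 in the structural beta genes (4 of 4) and 0.60 in the lid (8 of 8), as medians. It was -0.02 in the catalytic genes (1 of 3 above 0), 0.05 in the ATPases (3 of 6) and -0.11 in the other base genes (1 of 3). Of all genes 59.9% were above 0 in this comparison. Among the catalytic genes Psmb5 was 0.77, while Psmb6 (-0.10) and Psmb7 (-0.02) were within the scanner error. The immunoproteasome genes were 0.63 (Psmb8), 0.09 (Psmb9) and 0.20 (Psmb10) in LT-HSC, and -0.24, 0.09 and -0.14 in MPP. The dimmer 15 core genes had a larger median in LT-HSC than the brighter 16, 0.51 against 0.23. In MPP the role medians lay between -0.36 (structural beta genes) and -0.16 (ATPases) among core genes, and the Psmg chaperones were at -0.39.

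**Figure D4:**
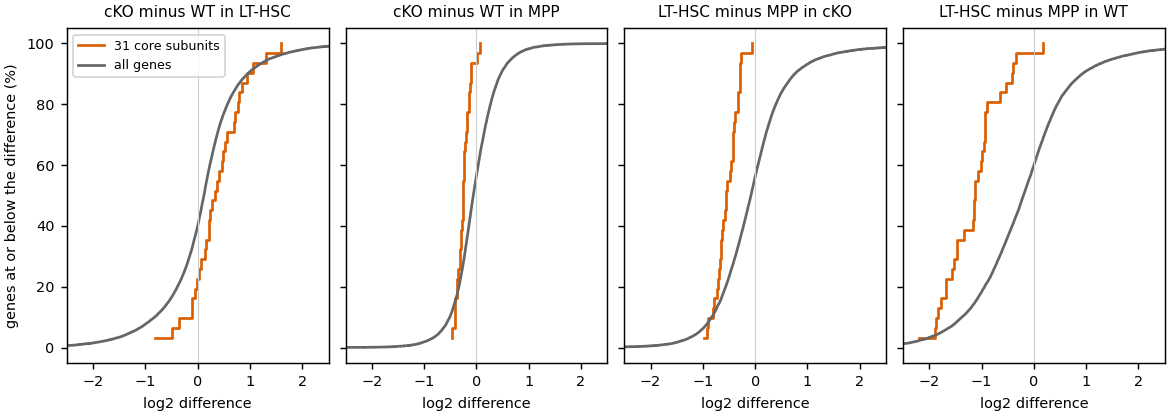
Share of genes (%) at or below each log2 difference, for the 31 core subunits (steps) and all genes measured on both arrays (smooth line), in the 4 comparisons. The core medians are 0.34 for cKO minus WT in LT-HSC, -0.25 for cKO minus WT in MPP, -0.55 for LT-HSC minus MPP in cKO and -1.13 for LT-HSC minus MPP in WT.

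The only test across arrays that the design allows is an additive fit of both factors, genotype and population, which leaves 1 residual degree of freedom and in which a response that differs between genotypes counts as error. In this limma fit over 25857 genes, no gene passed a Benjamini-Hochberg adjusted p of 0.05 for LT-HSC minus MPP (0% of genes). The smallest adjusted p was 0.055 over all genes and 0.28 over the core. At an unadjusted p under 0.05, 9 of 31 core genes were lower in LT-HSC (Psma3, Psma4, Psma5, Psmb7, Psmd1, Psmd6, Psmd7, Psmd13 and Psmd14), against 9.01% of all genes, and none was higher. This count was 2 under quantile normalization, against 7.25% of all genes, 5 with the percentile over measured probes, against 6.46%, and 13 with probes measured on all arrays, against 12.8%. The core median in this fit was -0.80. For cKO minus WT no gene passed, the smallest adjusted p was 0.98, 949 genes had an unadjusted p under 0.05 and none of them was a core gene.

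Of 28 other genes of the ubiquitin and proteasome pathway, 26 were measured. Their median LT-HSC to MPP difference was -0.28 in cKO cells and -0.47 in WT cells, beside core medians of -0.55 and -1.13. In cKO cells 2 of 26 were lower by 2-fold, against 6.22% of all genes, and in WT cells 6 of 25, against 18.2%, both near the share of all genes. Uchl5, a deubiquitinase bound to the 19S cap, had a level of 19.4 in cKO LT-HSC, 12.8 in WT LT-HSC, 31.4 in cKO MPP and 43 in WT MPP. Usp14, the other cap-bound deubiquitinase, had a level of 2.27 in cKO LT-HSC, 1.60 in WT LT-HSC, 4.02 in cKO MPP and 4.57 in WT MPP, and Rad23b, a shuttle of ubiquitinated proteins, had 10.5 in cKO LT-HSC, 5.45 in WT LT-HSC, 12.4 in cKO MPP and 15.2 in WT MPP. All 3 followed the order of most core genes. Pomp, the maturation factor of the 20S particle, had a level of 31.6 in cKO LT-HSC, 29.1 in WT LT-HSC, 42 in cKO MPP and 47.6 in WT MPP. Nfe2l1, the transcription factor known to induce proteasome genes when the proteasome is inhibited, had a level of 0.561 in cKO LT-HSC, 0.598 in WT LT-HSC, 0.522 in cKO MPP and 0.777 in WT MPP, with a difference of 0.10 in cKO cells and -0.38 in WT cells. Between genotypes the list's median was 0.10 in LT-HSC and -0.20 in MPP.

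Proliferation genes, taken as a sum, moved with these results. The summed level of 10 such genes was 50.5 in cKO LT-HSC, 31.4 in WT LT-HSC, 86.9 in cKO MPP and 94.1 in WT MPP, the same order as that of 22 core genes. Their median LT-HSC to MPP difference was -1.11 in cKO cells and -1.84 in WT cells, and their cKO minus WT difference was 0.68 in LT-HSC and -0.11 in MPP. Mki67 and Birc5 had the highest levels of the list on every array, so they weigh most in the sum. Not every gene of the list followed its order. In LT-HSC, cKO minus WT was -0.14 for Top2a, -0.29 for Cdk1 and -0.28 for Plk1. In MPP it was 0.02 for Ccnb2. The part of the proliferation genes in the proteasome differences was not tested.

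The non-members closest to the mean core profile, by root mean square distance of log2 values over the 4 arrays, were Lamtor4 (0.0056), Atp5o (0.0096), Klhdc8a (0.0097), Snrpb (0.012) and a probe named only by its genome position (0.0135). With 4 arrays and 21551 genes such closeness is a description of these arrays. Among the members Psma7 was closest to the mean profile, at 0.0098, with 3 non-members closer still.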

How the data were processed

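RNA of the 4 groups was read on 1-colour (Cy3) Agilent arrays, 1 array each, all on 1 slide and 1 scan. The deposited scanner tables hold spot intensities from Feature Extraction 10.7.3.1 (design 028005, probe coordinates on mm9), background-subtracted and detrended within each array, per the file headers, while version 9.5.3 stands in the submitters' processing notes. The flags for spots well above background, saturated or outlying are scores of 0 or 1, per the file headers. The authors' series table holds ratios, equal to the processed signal after 1 scaling factor for each array and another for each probe, which was found by setting it against the scanner values. Its scaling rule is not given in the sources used here.

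Here processed signals were divided by each array's 75th percentile over non-control probes and put on the log2 scale, outlying spots were left out, spots of a probe averaged, and a gene read at its brightest probe well above background on at least 1 array. Names were updated through RefSeq accessions for 26756 probes and through symbols or synonyms for 3824 and 639, and 24462 kept the file's name. Differences between single arrays carry no p-value, and precision is limited by the number of arrays: on each array the repeat spots of 215 probes (10 spots each) had an SD of 0.086 to 0.093 in the median (log2). limma 3.58.1 (R 4.3.3) fitted the additive model and was tested on simulated data. Other steps used Python 3.11.15 with pandas 2.3.3.

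The members, the role groups and the marker lists (B cell, T and NK cell, macrophage, neutrophil, erythroid, plasmacytoid and dendritic, stromal and endothelial, sort genes, proliferation, interferon and antigen presentation, proteasome partners) were chosen with earlier results of these data known. Levels on all 4 arrays are given for each catalytic and immunoproteasome subunit, and in each role for the genes with the largest and smallest absolute difference in each comparison. Other genes named from the lists were picked after their values were seen. Psma8 and Psmg2 sequences are not printed. Alternatives were another percentile, median scaling, quantile normalization, normexp with offset 50, the authors' table, averaging over all probes of a gene and other filters.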

Additional observations from a re-analysis of the deposited data

Results flagged for a closer look

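The core proteasome genes were higher on the cKO array in LT-HSC and lower on the cKO array in MPP, so the genotype differences of the populations had opposite signs. The median of the first difference less the second was 0.59 over 31 genes, with a range of -0.57 to 1.77, against 0.14 over 21551 genes. Opposite signs of this kind were seen for 22 of the 31 (71.0%) and for 33.5% of all genes. With 1 array a group the difference was not tested.

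Psmd10 differed by 1.17 between cKO and WT in LT-HSC and by -0.72 in MPP, a gap of 1.89 on the log2 scale, which was not tested either. The other Psmd10 probe gave 0.67 in LT-HSC and -1.06 in MPP.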

How the results depend on the processing

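Of 154 recalculations over 18 results, 133 stayed within 0.204 of a median, or within 1.5 times a count, and 21 moved further. The limit of 0.204 is the scanner error of a single gene's difference, not the error of a median over genes. By this wide limit the core median for cKO minus WT in LT-HSC, 0.34, counted as unmoved at 0.13 with median scaling. Quantile normalization, alone and with normexp, brought the core median to -0.28 and -0.25 for LT-HSC minus MPP in cKO and to -0.61 and -0.60 in WT, and the immunoproteasome median to 0.12 and 0.10 in cKO and to -0.10 and -0.11 in WT. The count of core genes at 2-fold for LT-HSC minus MPP, all of them lower, was 3 of 31 in cKO with median scaling. Of all genes 8.18% were lower by 2-fold there, so this count is near the share of all genes. In WT the core count was 12 of 31 with the 75th percentile taken over probes measured on every array, against 13.2% of all genes. It was 10 with quantile normalization, against 13.6%, and 10 with normexp and quantile normalization, against 7.36%. At 1.5-fold in place of 2-fold it was 14 in cKO, and for cKO minus WT in LT-HSC 10. The 1.5-fold count in cKO was 7 of 31 with the percentile over measured probes, against 14.2% of all genes. It was 4 with quantile normalization, against 17.6%, and 2 with normexp and quantile normalization, against 9.25%. The additive fit's calls for LT-HSC minus MPP, 0 as reported, were 106 with the percentile over measured probes, 57 with normexp and quantile normalization, 161 when the probes of a gene were averaged and 90 with genes measured on all arrays, none of them a core gene. The cause of these shifts was not tested. The scalings shifted the median of all genes between -0.20 and -0.01 for LT-HSC minus MPP in WT, -0.18 and 0.03 in cKO, -0.09 and 0.12 for cKO minus WT in LT-HSC, and -0.06 and 0.01 in MPP. Relative to the median of all genes, the core median lay between -0.93 and -0.56, -0.49 and -0.21, 0.21 and 0.28, and -0.19 and -0.11 in the same comparisons over 9 settings. Among all genes past 2-fold, the share that was higher moved from 54.6% to 38.9% with median scaling for cKO minus WT in LT-HSC. It moved from 48.2% to 59.6% with the percentile over measured probes and to 66.9% with normexp and quantile normalization in MPP. For LT-HSC minus MPP that share moved from 33.2% to between 40.2% and 47.5% in WT, and from 52.2% to between 41.6% and 66.2% in cKO, with median scaling, the percentile over measured probes and quantile normalization without and with normexp. Without Psmc2, or with every probe counted once, the core medians stayed within the scanner error of a single gene. These 2 settings and the 1.5-fold counts under each scaling were chosen after seeing the data. No paired analysis was possible because each group has 1 array. Signal over background limits Psma8 and Psmb11, and a gene's probes had the same sign in 7 to 10 of 11 genes.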
